A study of Mus musculus with 8 samples.

Results

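Genes of the MHC class II presentation pathway were followed in colonic epithelial cells of individual mice colonized with Bacteroides thetaiotaomicron (B. theta), a common gut symbiont. The set held 10 listed genes, taken as every probe set annotated to exactly 1 gene symbol on the list. It was chosen by measured values of the same comparison, the group differences and the spread between mice on these 8 arrays. Both are therefore given for its members as a description with no test. Of the 10 genes, 9 were found, with 19 of the 45037 probe sets and among 18193 genes in all. H2-DMb1 had no probe set of its own.

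BTΔMAFF-colonized mice (n = 4) carried the B. theta mutant lacking both genes of the mucus-associated functional factor (MAFF), BT2268 and BT2269. BTWT-colonized mice (n = 4) carried the wild-type strain. All 8 animals were male C57BL/6 mice, treated with metronidazole and ciprofloxacin before colonization (SPF-Abx mice), inoculated at 8 wk of age and sampled at 12 wk, after 4 wk of colonization. No mice without B. theta were on these arrays, so both groups share the antibiotics and the symbiont. Cells negative for propidium iodide and CD45 and positive for EpCAM were sorted to a purity of 90 to 95%, and their amplified RNA was hybridized to 1 Affymetrix array per mouse. Whether mice of a group shared a cage is not given in the sources used here, and p values measure the spread between these mice.

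MHC class II molecules are heterodimers of an α and a β chain that display peptides from endosomal proteins to CD4+ T cells. The invariant chain, encoded by Cd74, guides new dimers to endosomes, where cathepsins such as cathepsin S (Ctss) trim it and H2-DM exchanges its last fragment for a peptide, a step restrained by H2-O. The coactivator CIITA (Ciita) drives these genes in professional antigen-presenting cells constitutively and in other cells, among them intestinal epithelium, after exposure to interferon-γ.

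The promoter windows of H2-Aa, H2-Eb1, and H2-Oa are shown because these members share a promoter element but differed widely in their spread between mice. RefSeq sequences of GRCm38.p6, from 250 bases before to 50 bases after the annotated start, were used for 7 of the 10 listed genes. Capitals mark the Y box CTGATTGG, to which NF-Y binds, and the X box core AACNGATG, the kind of site bound by the RFX complex. Both strands were searched, and these motifs do not overlap. The windows lie at chr17:34287774-34288073 on the minus strand for H2-Aa, at chr17:34305617-34305916 on the plus strand for H2-Eb1, and at chr17:34092129-34092428 on the plus strand for H2-Oa.
H2-Aa: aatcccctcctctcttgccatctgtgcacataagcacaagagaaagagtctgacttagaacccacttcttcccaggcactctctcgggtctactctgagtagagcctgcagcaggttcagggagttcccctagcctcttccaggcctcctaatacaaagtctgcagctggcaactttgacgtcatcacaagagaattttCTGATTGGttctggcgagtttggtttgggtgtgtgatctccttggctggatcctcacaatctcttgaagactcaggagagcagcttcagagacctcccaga
H2-Eb1: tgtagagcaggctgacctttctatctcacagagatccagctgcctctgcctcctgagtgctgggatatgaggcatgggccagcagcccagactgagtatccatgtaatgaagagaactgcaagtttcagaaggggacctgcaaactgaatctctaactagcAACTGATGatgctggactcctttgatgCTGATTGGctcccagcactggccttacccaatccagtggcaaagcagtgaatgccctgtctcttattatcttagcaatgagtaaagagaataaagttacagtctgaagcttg
H2-Oa: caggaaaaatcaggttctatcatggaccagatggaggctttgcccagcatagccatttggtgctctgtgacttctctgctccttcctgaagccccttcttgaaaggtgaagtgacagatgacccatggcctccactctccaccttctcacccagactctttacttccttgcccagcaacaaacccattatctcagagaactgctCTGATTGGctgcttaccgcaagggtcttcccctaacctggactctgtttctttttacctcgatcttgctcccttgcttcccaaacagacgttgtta

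Counted in bases from the annotated start, the Y box began at -51 in H2-Aa, at -62 in H2-Eb1, and at -46 in H2-Oa. It was present in 4.1% of all 32851 windows. The X box core was at -89 in H2-Eb1 and was matched in 2.32% of windows. The shorter Y box core TGATTGG, in 7.82% of windows and contained in every Y box match, was also present in H2-DMb1 and H2-DMb2, each together with an X box core, and the X box core alone in Ctss. Neither H2-DMa window matched. A match is a description of these letters only.

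The values deposited are log2 values with the median of the 8 arrays set to 0 for every probe set. They show how far a mouse lay above or below the others but hold no level, so genes cannot be ranked by abundance, and an even gene may be evenly present or absent. Fewer cells of a type and less RNA per cell cannot be told apart in such bulk samples. BTΔMAFF replicate 4 and BTWT replicate 2 had loadings of 0.53 and 0.65 on principal component 1 (29.4% of the variance), unlike the remaining arrays, and the array medians lay between -0.03 and 0.04. Of 45037 probe sets, 0 passed an adjusted p of 0.05 (limma with Benjamini-Hochberg adjustment, 0% called), while 1288 were higher and 1007 lower in BTΔMAFF at an unadjusted p of 0.05.

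The classical chains and Cd74 differed between mice of the same group more than almost any other transcript on the array. In the widest probe set of each gene, the high values fell in BTΔMAFF replicate 1 and BTWT replicate 3, from both colonization groups. For Cd74, H2-Aa, and H2-Ab1 they also fell in BTΔMAFF replicate 4, which was at 0.30 for H2-Eb1. Ranked by the SD between mice of one group, pooled over both groups, the 4 widest probe sets of 45037 were H2-Aa and Cd74 probe sets, and class II probe sets made up 7 of the 9 widest. The remaining probe sets among these 9 were annotated to Ang4, an epithelial antimicrobial ribonuclease, and to G530011O06Rik. The cut at 9 falls at the last wide member, H2-Eb1, and ranks 10 to 12 were probe sets of Ang4, Bex1, and Slc15a2. As the set was chosen with the spread between these mice known, its ranks are a description only. The median SD over all probe sets was 0.13.

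H2-Aa encodes the α chain of the I-A molecule. Its probe set with the largest spread was at 6.94, -0.02, -0.02, and 3.96 on the centred log2 scale in BTΔMAFF replicates 1 to 4, against -0.66, 0.02, 7.79, and -0.81 in BTWT replicates 1 to 4. The groups overlapped, since the highest mouse of the 8 was a BTWT mouse and the next 2 were BTΔMAFF mice. The span from lowest to highest mouse was 8.60 log2 units, which is 387-fold. The means were 2.72 ± 3.38 in BTΔMAFF and 1.58 ± 4.15 in BTWT (SD, n = 4 each). The difference, BTΔMAFF minus BTWT, was 1.14 with a standard error of 2.47. Leaving out BTΔMAFF replicate 1 gave -0.27, and leaving out BTWT replicate 3 gave 3.21.

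Other H2-Aa probe sets bore on the same transcript. The probe set with suffix _s_at, used for sets shared by several transcripts, was at 6.62, -0.05, -0.02, and 3.58 in BTΔMAFF mice, against -0.01, 0.01, 7.66, and -0.03 in BTWT mice. A set with suffix _x_at, which warns of cross-hybridization and which the widest set also carries, was at 4.79, -0.06, -0.07, and 2.41 in BTΔMAFF mice, against -0.57, 0.06, 5.84, and -0.59 in BTWT mice. Both placed the same 3 animals above the other 5. The fourth, also _x_at, stayed between -0.07 and 0.14 in BTΔMAFF mice and between -0.03 and 0.47 in BTWT mice, with BTWT replicate 3 again the highest. Differences over the 4 probe sets ran from -0.15 to 1.14, so the sign of the group difference depended on the probe set.

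H2-Ab1 encodes the β chain that pairs with H2-Aa. Its widest probe set was at 4.18, -0.01, 0.01, and 1.46 in BTΔMAFF mice, against -0.10, -0.12, 5.02, and -0.33 in BTWT mice. The order of the 3 highest animals was the same as for H2-Aa, with BTΔMAFF replicate 4 between the extremes. The means were 1.41 ± 1.97 in BTΔMAFF and 1.12 ± 2.60 in BTWT (SD, n = 4 each), and the difference was 0.29 with a standard error of 1.51. With BTΔMAFF replicate 1 left out it was -0.63, and with BTWT replicate 3 left out it was 1.59.

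A separate H2-Ab1 probe set, with suffix _a_at, did not place BTΔMAFF replicate 4 apart. It was at 4.07, -0.02, 0.02, and 0.00 in BTΔMAFF mice, against -0.02, 0.00, 4.66, and -0.04 in BTWT mice. The third, with suffix _x_at, spanned -0.37 to 0.41 in BTΔMAFF mice and -0.35 to 1.69 in BTWT mice, where BTWT replicate 3 was highest and BTΔMAFF replicate 1, at 0.00, was not raised.

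H2-Eb1, the β chain of the I-E molecule, was high in BTΔMAFF replicate 1 and BTWT replicate 3. C57BL/6 mice carry a defective gene for the α partner H2-Ea and are known to make no I-E at the cell surface. H2-Eb1 was at 4.15, -0.04, -0.05, and 0.30 in BTΔMAFF mice, against -0.04, 0.04, 4.10, and -0.05 in BTWT mice. A single mouse in each group thus carried nearly the whole spread, and these 2 mice differed from each other by less than 0.1 of a log2 unit. The difference was 0.08 with a standard error of 1.34, with -0.94 when BTΔMAFF replicate 1 was omitted and 1.11 when BTWT replicate 3 was. H2-Ea itself lay between -0.05 and 0.18 in BTΔMAFF mice and between -0.02 and 0.16 in BTWT mice.

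Cd74 had the widest span of the members and set the animals outside the top 3 apart as well. It was at 6.24, -0.16, 0.16, and 3.26 in BTΔMAFF mice, against -1.70, -1.50, 7.21, and -1.72 in BTWT mice. The lowest 3 mice were BTWT replicates 1, 2, and 4, and BTΔMAFF replicates 2 and 3 lay more than 1 log2 unit above them, but BTWT replicate 3 was higher than every BTΔMAFF mouse. The span was 8.94 log2 units, or 491-fold. The means were 2.38 ± 3.0 in BTΔMAFF and 0.57 ± 4.43 in BTWT (SD, n = 4 each). The difference of 1.81 (standard error 2.47) was positive with each mouse left out in turn, between 0.52 (BTΔMAFF replicate 1 omitted) and 4.02 (BTWT replicate 3 omitted), and was -2.82 when arrays were weighted by their agreement with the fit, which gave weights of 4.68 to BTWT replicate 3 and 4.36 to BTΔMAFF replicate 2, a mouse without raised chains, and 0.12 to BTΔMAFF replicate 4. The same weighting gave -3.33 for H2-Aa, -2.31 for H2-Ab1, and -1.83 for H2-Eb1.

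**Figure D1:**
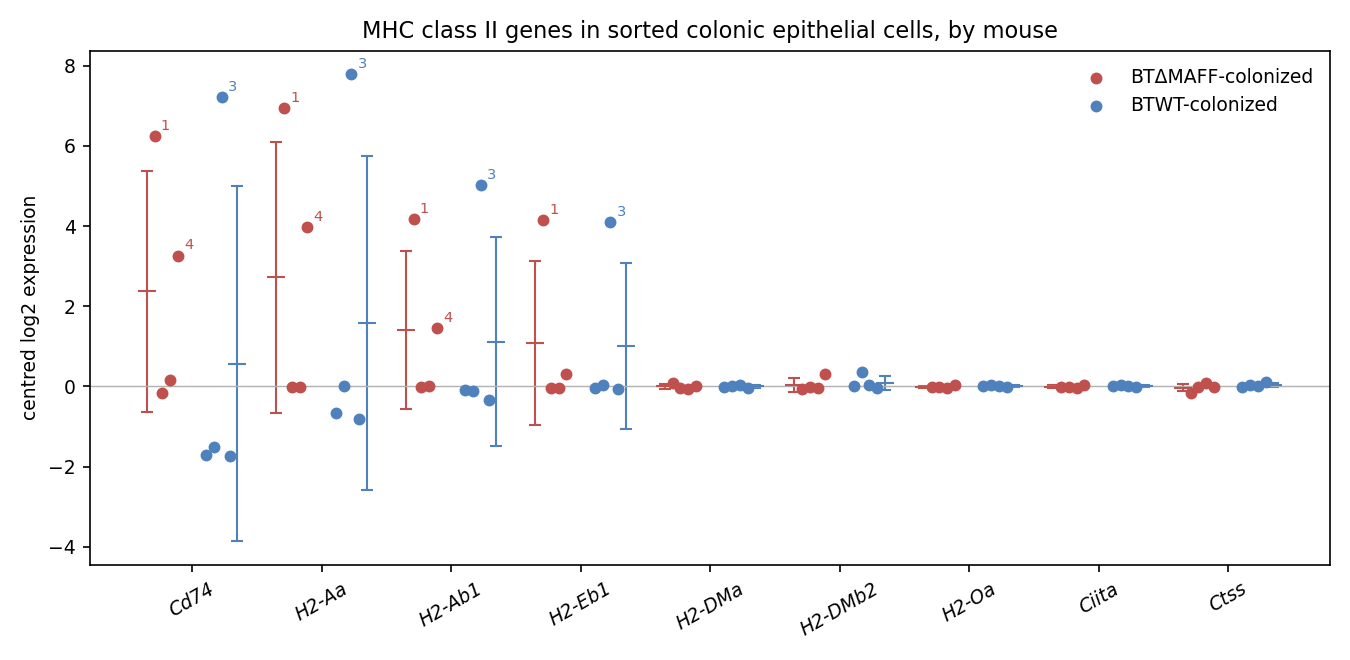
Centred log2 expression of 9 class II genes (x axis) in each mouse, with BTΔMAFF mice in red to the left and BTWT mice in blue to the right, and mean ± SD (n = 4) as bars beside the points. Digits give the replicate number of mice above 1, and only Cd74, H2-Aa, H2-Ab1, and H2-Eb1 have such mice.

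**Figure D2:**
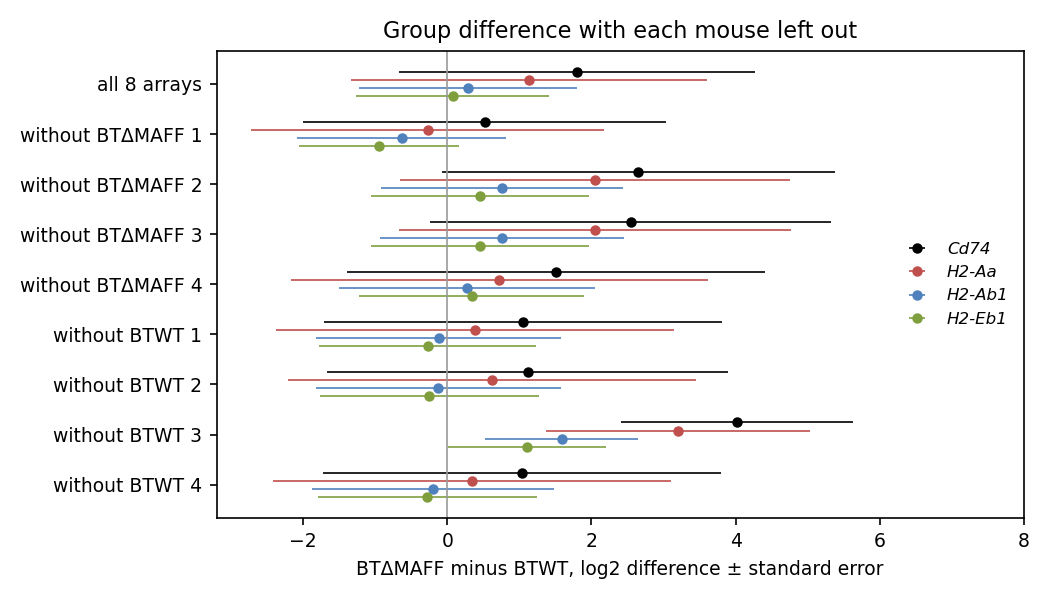
Difference BTΔMAFF minus BTWT in log2 units ± standard error (x axis) for 4 genes with all 8 arrays and with each mouse left out (y axis). The values lie farthest left without BTΔMAFF replicate 1, at -0.94 for H2-Eb1, and farthest right without BTWT replicate 3, at 4.02 for Cd74.

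H2-DM, the peptide exchange factor, was nearly even where a probe set belonged to 1 gene. H2-DMa, its α chain, was at 0.10, -0.04, -0.06, and 0.01 in BTΔMAFF mice, against -0.01, 0.01, 0.05, and -0.04 in BTWT mice. The 2 highest values were again in BTΔMAFF replicate 1 and BTWT replicate 3, at 0.10 and 0.05, but the whole span was 0.15 log2 units. A second H2-DMa probe set spanned 0.11 log2 units, with BTΔMAFF replicate 1 again highest at 0.07 but BTWT replicate 3 at 0.01, below BTΔMAFF replicate 4 and BTWT replicate 2 at 0.02 each.

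H2-DMb2, a β chain of H2-DM, was high in other animals. It was at -0.07, -0.02, -0.04, and 0.31 in BTΔMAFF mice, against 0.02, 0.35, 0.04, and -0.03 in BTWT mice. The raised mice were BTΔMAFF replicate 4 and BTWT replicate 2, the arrays that stood apart over all probe sets and that had the highest medians, 0.04 in each, and the part of that in the gene's values was not tested. Another pair of H2-DMb2 probe sets had the same 2 mice highest. The difference was -0.05 with a standard error of 0.12 and was 0.04 without BTWT replicate 2.

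A pair of probe sets listed under both H2-DMb1 and H2-DMb2 lay outside the rule and could not be given to either gene. The set with the plain suffix _at was at 2.32, -0.06, -0.08, and 0.05 in BTΔMAFF mice, against -0.03, 0.03, 0.95, and -0.06 in BTWT mice. The _s_at set was at 1.26 in BTΔMAFF replicate 1 and between -0.04 and 0.04 in the other 7 mice. BTΔMAFF replicate 1 was the highest mouse in both, and BTWT replicate 3 was next in the first alone.

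H2-Oa, the α chain of the H2-DM inhibitor H2-O, never lay more than 0.0086 log2 units from an array's own median, where the median probe set reached 0.26. Its difference was -0.02 with a standard error of 0.02. Its window holds the same Y box letters as those of H2-Aa and H2-Eb1, but the span between lowest and highest mouse was 0.06 log2 units for H2-Oa, 8.60 for H2-Aa, and 4.20 for H2-Eb1. H2-Ob, the β chain of H2-O, lay between -0.04 and 0.09 in BTΔMAFF mice and between -0.01 and 0.08 in BTWT mice.

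Ctss, the protease of the last steps of invariant chain removal, was at -0.15, -0.01, 0.08, and -0.02 in BTΔMAFF mice, against -0.01, 0.05, 0.01, and 0.12 in BTWT mice. BTΔMAFF replicate 1, among the highest mice for the chains, was the lowest for Ctss. The difference was -0.07 with a standard error of 0.06, and it was negative with each mouse left out in turn.

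Ciita, the coactivator of these genes, had one of the smallest spreads of the members. Its 3 probe sets lay within 0.010, 0.0082, and 0.0047 log2 units of the array medians in all 8 mice, and 93.9%, 96.7%, and 86.3% of probe sets had a larger SD between mice. The differences were -0.02, -0.01, and -0.02 with standard errors of 0.02, 0.02, and 0.03. In the 3 mice with high H2-Aa, the widest Ciita probe set was at -0.01, 0.05, and 0.01, within 0.0047 log2 units of the array medians. As the values hold no level, whether these probe sets detected Ciita cannot be read from them.

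**Figure D3:**
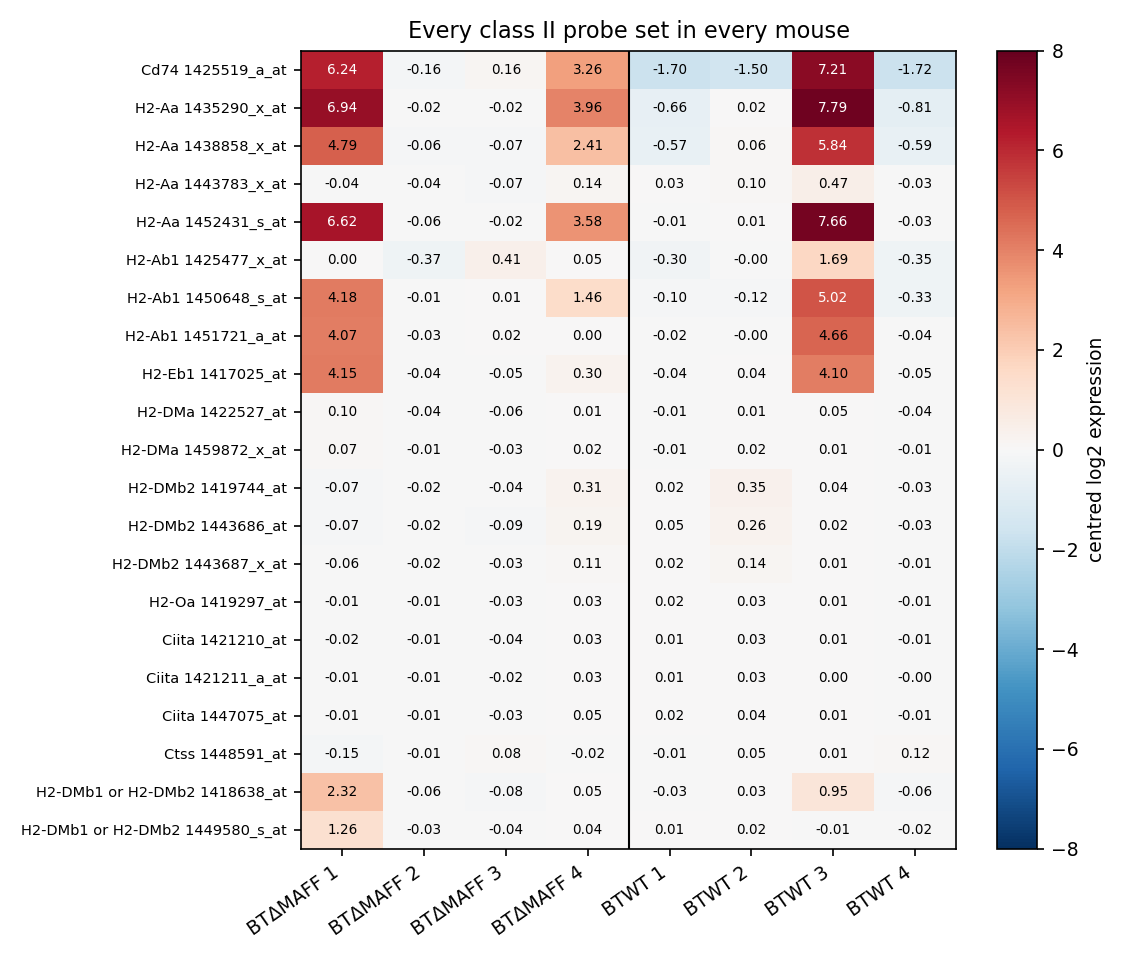
Centred log2 values, printed and coloured from blue for low to red for high, of all 19 class II probe sets and the 2 shared by H2-DMb1 and H2-DMb2 (rows) in each mouse (columns, BTΔMAFF left of the line and BTWT right of it). High values stand in the columns of BTΔMAFF 1, BTΔMAFF 4, and BTWT 3 and in most rows of Cd74, H2-Aa, H2-Ab1, and H2-Eb1. The 2 shared rows reach 2.32 and 1.26 in BTΔMAFF 1.

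**Figure D4:**
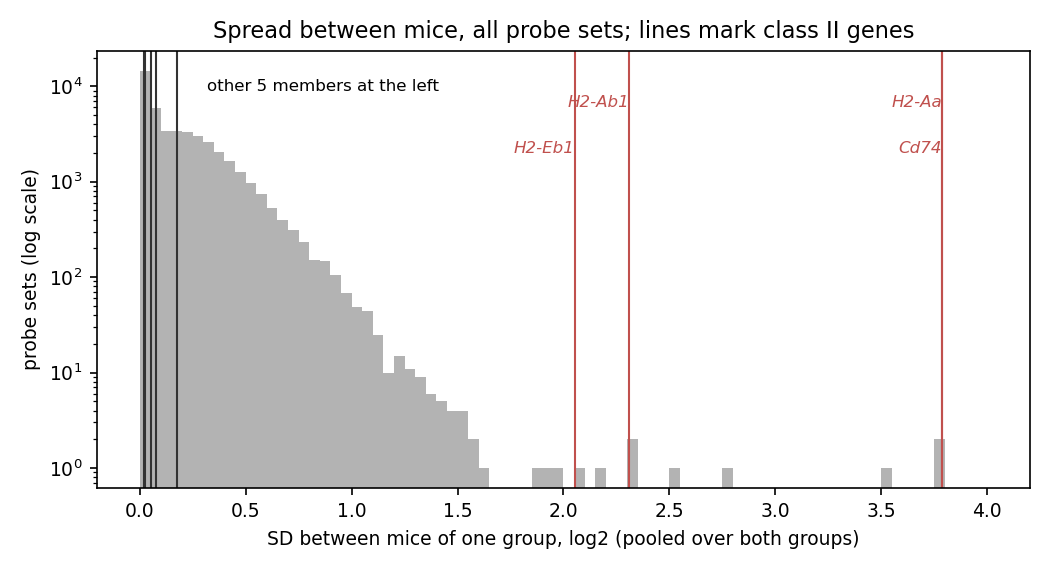
Number of probe sets (log scale) by the SD between mice of one group in log2 units, over all 45037 probe sets. Lines mark the probe set representing each of 9 class II genes, with H2-Aa and Cd74 at the right end and 5 genes at the left.

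Over the 9 genes, 5 differences were positive and 4 negative, with a median of 0.0015, beside -0.02 over all 18193 genes. For 0 of the 9 genes, and for 0 of the 19 probe sets, did the groups fail to overlap, beside 3.14% of all genes.

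H2-Aa, H2-Ab1, H2-Eb1, and Cd74 varied together over the 8 mice, whereas Ciita and H2-Oa stayed close to the array medians. Among H2-Aa, H2-Ab1, H2-Eb1, and Cd74, Pearson's r over the 8 mice was 0.91 to 0.99 for the 6 pairs, with Spearman's rho from 0.74 to 0.98. H2-DMa went with these genes, at r of 0.78 to 0.86, and Ctss went against them, at -0.61 to -0.59. Ciita had r of 1.00 with H2-Oa and 0.91 with H2-DMb2. The values of Ciita and H2-Oa lay within 0.0047 and 0.0086 log2 units of the array medians in every mouse. Their r cannot be told apart from differences between whole arrays. These points share arrays, and the mice form separate clusters, so the values describe these 8 mice and no relation could be tested. Without BTWT replicate 3 and BTΔMAFF replicate 1, the 2 mice farthest from the median, r within the 4 genes was 0.85 to 0.99 and rho 0.43 to 0.94. In the same 6 mice the median r among the other 5 genes, Ciita and H2-Oa included, was 0.89, against 0.17 with all 8. The part of the array medians in the values of these 5 genes was not tested. The median r between those 5 and the 4 genes was 0.51, against -0.06. The median rho between them was 0.09, against 0.07 with all 8. The median rho within the 4 genes was 0.71, against 0.87 with all 8. Leaving out these 2 mice thus narrowed the separation of H2-Aa, H2-Ab1, H2-Eb1, and Cd74 from the rest by r and, less so, by rho.

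The genes most like the mean of the members, out of 18184 other genes, were Dlst (r = 0.976), Spa17 (r = 0.969), Xrcc3 (r = 0.956), Eps8l1 (r = 0.951), and Tsfm (r = 0.937) over 8 mice, and 15 genes had r over 0.9. Dlst, a subunit of the 2-oxoglutarate dehydrogenase complex, was at 0.52, -0.08, -0.05, and 0.33 in BTΔMAFF mice, against -0.02, -0.06, 0.71, and 0.02 in BTWT mice. Xrcc3, a homologous recombination gene, was at 1.24, -0.01, -0.18, and 0.33 in BTΔMAFF mice, against 0.01, -0.61, 1.29, and -0.42 in BTWT mice. Their spans were far below the 8.60 log2 units of H2-Aa. Without the 2 mice farthest out, r was 0.89 for Dlst and 0.42 for Tsfm.

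The remaining pathway genes and markers of other cells were followed in 14 lists with 201 measured genes, of which 12 were higher and 6 lower in BTΔMAFF at an unadjusted p of 0.05 from limma, beside 3.37% higher and 2.35% lower of all genes. None passed the adjusted threshold. With BTΔMAFF replicate 4 left out, 15 genes were lower, and with BTWT replicate 1 or BTWT replicate 4 left out, 3 were.

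Of 13 measured regulators of the class II promoter, 1 was higher and 1 lower at an unadjusted p of 0.05, and the median difference was 0.09. Kat2b, a histone acetyltransferase, had a difference of 0.97 (standard error 0.28, limma adjusted p = 0.673) and Zxdc, a zinc finger partner of CIITA, one of -0.51 (0.18, adjusted p = 0.828). Rfx5, a subunit of the X box complex, was at 0.35, -0.11, 0.11, and -0.08 in BTΔMAFF mice, against -0.01, -2.04, 0.01, and 0.31 in BTWT mice. The single low mouse for Rfx5, BTWT replicate 2, was 1 of the arrays that stood apart over all probe sets. It was at 0.02 for H2-Aa and -0.12 for H2-Ab1. BTWT replicate 1 was at -0.66 and -0.10 for these genes and BTWT replicate 4 at -0.81 and -0.33. The part of Rfx5 in these values was not tested.

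Interferon-γ signals from its receptor through JAK kinases. Of 17 measured genes of this pathway, 2 were higher at an unadjusted p of 0.05 and none lower, with a median difference of -0.02. Ifngr2, a receptor chain, had a difference of 0.34 (standard error 0.14) and the kinase Jak2 one of 0.58 (0.24), each with a limma adjusted p of 0.828. Irf1, a transcription factor upstream of Ciita, was at 0.18, 0.06, 0.24, and -0.05 in BTΔMAFF mice, against -0.26, -0.62, 0.03, and -0.03 in BTWT mice, with BTΔMAFF replicate 3, a mouse without raised chains, the highest.

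Of 22 measured targets of interferon-γ other than class II, 2 were higher and 1 lower at an unadjusted p of 0.05, and the median difference was 0.05. The mean of the list was 0.38, 0.00, 0.11, and 0.12 in BTΔMAFF mice, against -0.28, -0.45, 0.38, and -0.06 in BTWT mice. Its highest mice were BTΔMAFF replicate 1 and BTWT replicate 3, also the highest for H2-Aa, while BTΔMAFF replicates 3 and 4, one without and one with raised H2-Aa, lay side by side. Irgm1, an immunity-related GTPase, was lower with a difference of -0.22 (standard error 0.07, limma adjusted p = 0.69). Zbp1, a nucleic acid sensor, was at 1.85, 0.56, 0.00, and 1.32 in BTΔMAFF mice, against -0.59, -0.12, -0.15, and 0.00 in BTWT mice, a difference of 1.15 (standard error 0.40, limma adjusted p = 0.828). BTWT replicate 3 was thus among the other BTWT mice for Zbp1.

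A pair of interferon-inducible genes was chosen after their values were seen. Gbp2, a guanylate-binding protein gene, was at 1.28, 0.10, 0.57, and -0.10 in BTΔMAFF mice, against -2.49, -3.73, 0.71, and -0.70 in BTWT mice. Ubd, encoding the ubiquitin-like FAT10, was at 1.18, 0.08, 1.02, and -0.68 in BTΔMAFF mice, against -0.37, -0.56, 1.53, and -0.08 in BTWT mice. In both, BTΔMAFF replicate 1 and BTWT replicate 3 were among the 3 highest mice, whereas BTΔMAFF replicate 4, the third mouse with high H2-Aa, was among the middle or lowest.

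The mean of 20 measured genes of MHC class I presentation, which handles peptides from the cytosol, lay between -0.04 and 0.18 in BTΔMAFF mice and between -0.05 and 0.10 in BTWT mice. The mean of the 9 class II genes lay between -0.04 and 2.37 in BTΔMAFF mice and between -0.32 and 2.69 in BTWT mice. At an unadjusted p of 0.05, 2 were higher, Tapbpl with a difference of 0.56 (standard error 0.15, limma adjusted p = 0.587) and Tap1 with one of 0.51 (0.20, adjusted p = 0.828), and B2m was lower with one of -0.22 (0.07, adjusted p = 0.759). Tap1, a peptide transporter subunit, was at 0.82, -0.02, 0.66, and 0.14 in BTΔMAFF mice, against -0.05, -0.36, 0.02, and -0.04 in BTWT mice. Nlrc5, the class I coactivator related to Ciita, was as even as Ciita, between -0.03 and 0.05 in BTΔMAFF mice and between -0.01 and 0.04 in BTWT mice.

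Among 13 endosomal processing genes, limma gave no higher gene and 2 lower ones at an unadjusted p of 0.05, Cst3, an inhibitor of cathepsins, with a difference of -0.38 (standard error 0.12, limma adjusted p = 0.73) and Ctsz, a cathepsin, with one of -0.41 (0.17, adjusted p = 0.828). Of 13 genes for costimulation and checkpoint ligands and 3 other class II locus genes, 0 passed an unadjusted p of 0.05 in either direction.

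Markers of other cells, some of which make class II, were followed in the sorted cells. Itgax (CD11c of dendritic cells), Cd79a (B cell receptor signalling), Cd3e (T cells), and Ptprc (CD45, gated out by the sort) stayed between -0.04 and 0.07 in all 8 mice, whereas H2-Aa spanned 8.60 log2 units. Without a level, whether these markers were present at all cannot be read from the values. Of the marker lists, 14 of 21 dendritic cell and macrophage genes, 12 of 16 B and plasma cell genes, 11 of 17 T cell and intraepithelial lymphocyte genes, and 9 of 15 general leukocyte genes lay within 0.1 log2 units of every array median, as did 38.2% of all probe sets. The mean of the dendritic cell and macrophage list was -0.03 to 0.07 in BTΔMAFF mice and 0.03 to 0.21 in BTWT mice. The B cell list was at -0.04 to 0.13 in BTΔMAFF mice and at -0.06 to 0.09 in BTWT mice. BTΔMAFF replicate 4, with raised H2-Aa, was the highest mouse of the B cell list at 0.13, followed by BTWT replicate 2, without raised H2-Aa, at 0.09. BTΔMAFF replicate 4 was also the highest BTΔMAFF mouse of the dendritic cell and macrophage list, at 0.07. The highest of that list was BTWT replicate 1, without raised H2-Aa. In this mouse Cd14 was at 1.49, Lyz1 at 1.33, and Cd83 at 1.18, and no other gene of the list was above C1qb at 0.20. Its list mean thus rests on these few genes. BTΔMAFF replicate 4 and BTWT replicate 2 had the highest array medians, 0.04 in each, and the part of that in the list means was not tested. Of the dendritic cell and macrophage genes, 1 was lower at an unadjusted p of 0.05 and none higher. This was Cd14, a lipopolysaccharide receptor of macrophages, at 0.09, -0.78, -0.09, and -0.50 in BTΔMAFF mice, against 1.49, -0.41, 1.21, and 0.98 in BTWT mice (difference -1.14, standard error 0.43, limma adjusted p = 0.828). None of the B cell, T cell, or general leukocyte genes passed.

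BTWT replicate 3, the mouse with the highest H2-Aa and Cd74, also had high values of some lymphocyte genes. Gzma, the granzyme A gene of cytotoxic and intraepithelial lymphocytes, was at 2.79 in this mouse, between -0.05 and 0.03 in BTΔMAFF mice, and between -0.01 and 0.02 in the other BTWT mice. Itgae, the CD103 chain, was at 0.91 in it and Ccl5, a chemokine of T cells, at 0.79. Laptm5, a lysosomal gene of leukocytes chosen after its values were seen, was at -0.31, -0.07, -0.02, and 0.13 in BTΔMAFF mice, against 0.02, 0.07, 3.07, and -0.30 in BTWT mice. The general leukocyte list averaged 0.02 to 0.06 in BTΔMAFF mice and -0.08 to 0.42 in BTWT mice, and the T cell list -0.03 to 0.07 in BTΔMAFF mice and -0.04 to 0.27 in BTWT mice, with BTWT replicate 3 at the top of both. BTΔMAFF replicates 1 and 4, with high H2-Aa and Cd74, lay between -0.31 and 0.13 for Gzma, Itgae, and Laptm5. The general leukocyte list averaged 0.02 in BTΔMAFF replicate 1 and 0.03 in BTΔMAFF replicate 4, beside 0.06 in BTΔMAFF replicate 3, without raised chains. These means include Lcp1, the gene of that list with the widest range in BTΔMAFF mice, named after its values were seen. It was at -0.66, 0.65, 1.42, and -0.65 in BTΔMAFF mice, against 1.29, -0.73, 2.54, and -0.71 in BTWT mice. The order of the 3 means therefore says little about the other genes of the list. From that list, Cd52 and Vav1 are named for high values in BTΔMAFF replicate 1 or 4, also chosen after their values were seen. Cd52, a surface antigen of lymphocytes, was at 1.02 in BTΔMAFF replicate 1 and at most 0.11 in any other mouse, and Vav1, a signalling gene of blood cells, was at 0.50 and 0.37 in BTΔMAFF replicates 1 and 4 and at most 0.13 in any other mouse. The part of these leukocyte genes in the class II values of the 3 mice was not tested.

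**Figure D5:**
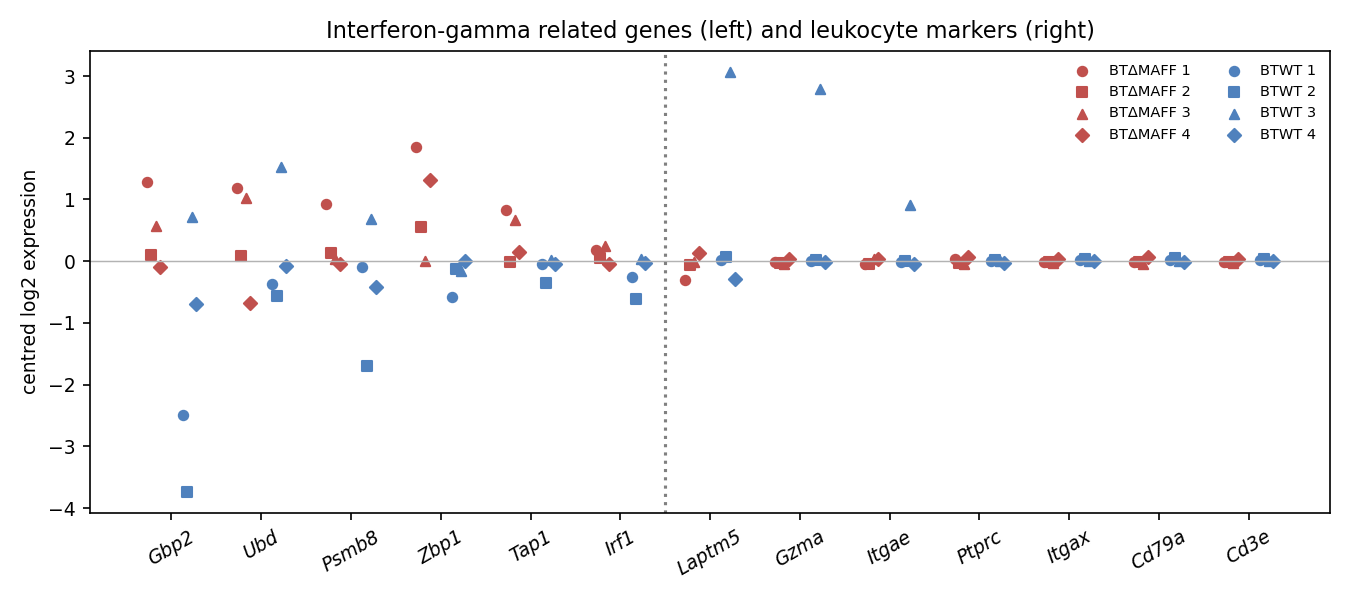
Centred log2 expression (y axis) of 6 interferon-γ related genes, left of the dotted line, and 7 leukocyte markers, right of it, with BTΔMAFF mice in red at the left of each gene, BTWT mice in blue at the right, and the marker shape giving the replicate. Laptm5, Gzma, and Itgae are high in BTWT replicate 3 alone, whereas Ptprc, Itgax, Cd79a, and Cd3e stay near 0 in every mouse.

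Epithelial genes were examined to check the labelled cell type, though centred values show only how evenly a marker was spread. Epcam was at -0.42, 0.01, -0.01, and 0.36 in BTΔMAFF mice, against -0.23, 0.64, -0.07, and 0.01 in BTWT mice, a difference of -0.10 (standard error 0.23). Of 16 epithelial markers, 5 were higher in BTΔMAFF at an unadjusted p of 0.05 and none lower, the smallest limma adjusted p being 0.243 for Slc26a3, the chloride/bicarbonate exchanger of surface colonocytes. Fcgbp, a mucus protein gene, had a difference of 0.67 (standard error 0.14, adjusted p = 0.414) and Vil1, encoding villin of the brush border, one of 0.40 (0.10, adjusted p = 0.489). The list averaged 0.01 to 0.22 in BTΔMAFF mice and -0.15 to -0.04 in BTWT mice, with BTΔMAFF replicate 3, where H2-Aa was at -0.02, the highest. Stromal genes averaged 0.05 to 0.52 in BTΔMAFF mice and -0.19 to 0.15 in BTWT mice, with 0 of 13 passing an unadjusted p of 0.05, and the highest, BTΔMAFF replicate 2, was even for H2-Aa at -0.02. Of 4 measured genes of group 3 innate lymphoid cells, 0 passed.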

How the data were processed

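RNA of sorted colonic epithelial cells was amplified by the authors with NuGEN WT Ovation Pico reagents and hybridized to Affymetrix mouse genome arrays, 1 per mouse. The authors deposited log2 values in which each probe set has a median of 0 over the 8 arrays. GeneSpring 12.5 is named in the methods and Affymetrix Expression Console, without a version, in the submitters' processing notes. How probe sets were summarized, corrected for background, and normalized is not given in the sources used here.

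After removal of 64 control probe sets, linear models were fitted to 45037 probe sets (limma 3.58.1 under R 4.3.3, functions lmFit and eBayes, BTΔMAFF minus BTWT, no covariate) with Benjamini-Hochberg adjustment over all of them. Of these, 34945 had 1 gene symbol in the platform annotation, and a gene was represented by its most variable probe set over the 8 arrays. Group means are given ± SD. The members and lists were chosen with earlier results of these data known. Named were all members, up to 3 genes of smallest p in each list, a few fixed markers and regulators, and the 5 genes most correlated with the mean of the members. Some genes that the rule took from the lists, none past an unadjusted p of 0.05, were left out for length, and 1 gene is not reported here. The procedure was tested on simulated data. The number of arrays limits the precision. Alternatives were quantile normalization, median centring, weighting of arrays, a block for the replicate number, the methods' t-test, probe set choices, a filter on SD, and leaving out arrays.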

Additional observations from a re-analysis of the deposited data

Results flagged for a closer look

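Within a group of 4 mice, a value was singled out where its gap to the nearest other mouse took more of the group's range than Dixon's test allows at 95%. This happened in 6 of 18 groups of the members and in 14 of 98 groups of the other named genes, beside 12.6% of 36386 groups over all genes and about 1 in 20 by chance. The members were chosen with the spread between these mice known, so their count is a description only. BTWT replicate 3 was the high mouse for H2-Eb1 (0.978 of the range), Cd74 (0.975), H2-Ab1 (0.957), and H2-Aa (0.904). BTΔMAFF replicate 1 was the high mouse for H2-Eb1 (0.917) and BTΔMAFF replicate 4 for H2-DMb2 (0.874). For H2-Aa, H2-Ab1, and Cd74 in BTΔMAFF mice, BTΔMAFF replicate 4 lay between replicate 1 and the rest, and no mouse was singled out.

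BTWT replicate 3 was also high for Gzma (0.989), Itgae (0.945), Ccl5 (0.873), and Cd48 (0.872). BTΔMAFF replicate 4 was high within its group for Cxcr6 (0.909), H2-Eb2 (0.857), and H2-Ea (0.853) and low for Batf2 (0.920) and Ctsd (0.829). Its values were only 0.20 for Cxcr6, 0.09 for H2-Eb2, and 0.18 for H2-Ea, on an array with a median of 0.04. For Cxcr6, BTWT replicate 3 was higher at 0.32. BTWT replicate 2 was low for Icosl (0.890) and Rfx5 (0.862) and high for Cx3cr1 (0.878). BTWT replicate 4 was high for Rfxank (0.838) and BTΔMAFF replicate 3 for Csf1r (0.832). The _at probe set listed under both H2-DMb1 and H2-DMb2 and in no comparison, reached 2.32 in BTΔMAFF replicate 1 on the centred log2 scale, against at most 0.95 in BTWT mice.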

How the results depend on the processing

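Without adjusted calls among all probe sets (0 higher and 0 lower with limma, 0 and 0 with the methods' t-test), alternatives gave few, except array weights. The counts were 338 higher and 172 lower with array weights, 16 higher and 9 lower in the more variable part of the probe sets, where fewer are tested, 1 higher with each array centred on its median, and 2 higher without BTΔMAFF replicate 4 and BTWT replicate 2. Leaving out single mice gave 0 to 5 higher and 0 to 1 lower. The 12 higher and 6 lower genes of the lists became 22 and 42 with array weights, 20 were lower without both arrays that stood apart, and with single mice left out 9 to 16 were higher and 3 to 15 lower. Why array weights had these effects was not tested, beyond the weights of 4.36 for BTΔMAFF replicate 2, 0.12 for BTΔMAFF replicate 4, and 4.68 for BTWT replicate 3.

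Among the members, the difference was positive under 13 of 14 alternatives for Cd74, 13 of 15 for H2-Aa, 7 of 14 for H2-Ab1, and 9 of 14 for H2-Eb1. With array weights it was -2.82 for Cd74 and -3.33 for H2-Aa, and without suffix _x_at sets H2-Aa had 0.62. Differences of Ciita lay between -0.03 and 0.00. The median difference of the members was 0.0015 and -0.06 to 0.02 under the alternatives. Same-numbered mice had correlations of their deviations of 0.39, -0.04, 0.03, and -0.27. The closest BTWT mouse had the same number for BTΔMAFF replicate 1 alone. These few values cannot settle whether the numbers pair the mice. With the replicate number as a block, 0 probe sets were called in either direction, the list counts were 11 and 5, and the median difference stayed 0.0015. Depth does not apply, and signal over background is unknown from centred values.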
